A study of Mus musculus with 6 samples.

Results

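The effect of losing Sox11 where Sox4 was already lost was read from 4 of the 6 arrays of the series, the 2 arrays of the Sox4/11 dcKO (double conditional knockout) and the 2 arrays of the Sox4cKO (Sox4 conditional knockout). The other 2 arrays were of the Sox11cKO (Sox11 conditional knockout). They entered the fit, which estimated the spread from all 6 arrays, and are given for comparison where named. Knockout epidermis and the epidermis of wild-type littermates were labelled with different dyes and hybridised together, so each value is a log2 ratio of knockout over wild type. The Sox4 cKO value was subtracted from the dcKO value for the same replicate number. On replicate 1 the knockout was labelled with Cy5 and on replicate 2 with Cy3, so a dye effect cancels within each difference. The difference was taken for all 55681 probes, of which 28342 were named, for 21371 genes. All embryos were at E16 by the labels, on a 129SvEx:C57BL/6 background by the strain label, and both dcKO and Sox4 cKO lacked Sox4 in the epidermis. Per the study's methods the floxed alleles were deleted by Krt14-Cre, which acts in basal keratinocytes and their descendants. The Cre line was on FVB/N, so the cross also brought in FVB/N genome. Dorsal epidermis was peeled off after dispase. The founder stock also carried a Sox12 null allele, and whether these embryos did was not given. The question was what changed when the second gene was lost as well.

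SOX4 and SOX11 are closely related transcription factors of the SOXC class, which are prominent in embryonic epithelia and neurons and decline as tissues mature. Late in gestation the epidermis builds its barrier. Its uppermost cells assemble a cornified envelope from proteins encoded side by side in the epidermal differentiation complex (EDC), among them the late cornified envelope (Lce) proteins, small proline-rich (Sprr) proteins and filaggrin. During this time the periderm, a temporary outer layer rich in simple epithelial keratins, is shed.

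The targeted genes could check only part of the genotypes. The dimmer Sox4 probe (A_55_P2131899) was well above background in the wild type on all 4 arrays and in the knockout on none, and its ratio was −1.66 and −2.26 in Sox4 cKO and −1.55 and −1.61 in dcKO. The brighter Sox4 probe (A_55_P2121613) read −0.14 and −0.71 in Sox4 cKO and −0.96 and −0.69 in dcKO. The difference between the genotypes passed for neither probe (0.38 and −0.40, adjusted p = 0.864 and 0.867). Sox11, the gene by which the genotypes differ, lay near background. Its better probe (A_55_P2094721) was well above background in the dcKO channel on neither array and in the wild type beside dcKO on 1 of 2, and its ratio was −0.96 and −0.48 in dcKO and −0.24 and 0.41 in Sox4 cKO (difference −0.80, adjusted p = 0.709). These probes could therefore not show the loss of Sox11. The paper reports that the loss of Sox4 and/or Sox11 was checked by RT-qPCR in the RNAs used for the arrays. Sox12 was not well above background in any of the 8 channels.

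Probes were called at an adjusted p under 0.05, with an absolute difference over 1.5 on the log2 scale. By this rule 73 of the 55681 probes (0.131%) differed between dcKO and Sox4 cKO, 62 higher in dcKO (0.111%) and 11 lower (0.0198%). They stood for 58 named genes and 11 probes without a name. With 1 probe per gene, the brightest, 44 of 21371 genes were higher (0.206%) and 9 lower (0.0421%). An unadjusted p under 0.05 was reached by 3405 probes, where chance would give 2784. All 73 had the same sign for both replicate numbers, which with 2 numbers follows largely from passing the test, and 64 of them were well above background in all 8 channels. Of the 73, 65 were also called in dcKO against its own wild type, and 0 were called in Sox4 cKO against its own. The count was 48 without the replicate block, 47 without Sox4 cKO replicate 1 and 135 without dcKO replicate 2. With the scanner software's own log ratio no probe was called (3851 at an unadjusted p under 0.05 in limma), while the Lce1 and periderm medians given below stood at 3.07 and −1.33. Of 5 genes, singled out after their values were seen, the brightest probe was not called but another probe was. For Ncoa3 and Sun1 these probes (2.52 and 2.04) disagreed with the brightest (−0.17 and −0.07), while for Mxd1 (1.71 and 0.83), Plscr1 (2.03 and 1.57) and Sftpd (−2.19 and −2.76) the signs were the same.

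**Figure D1:**
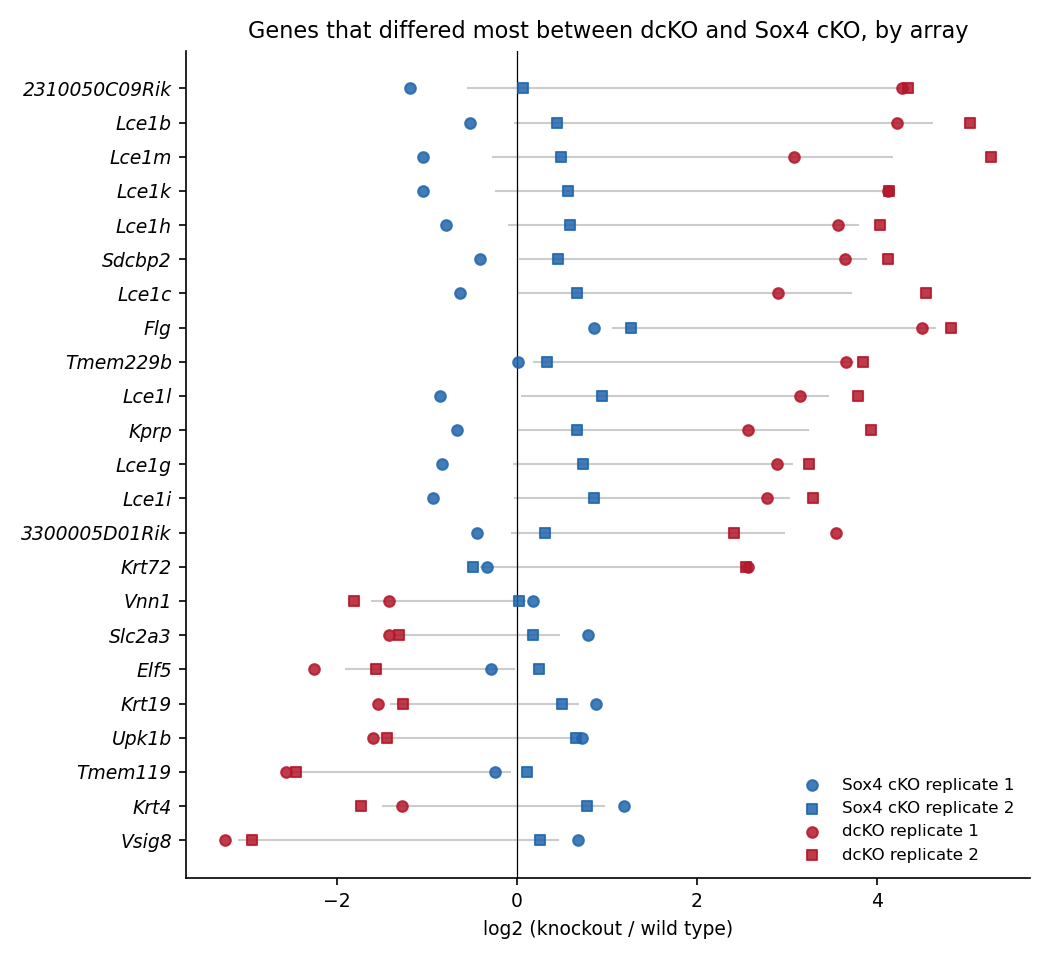
The 15 named genes that were most increased and the 8 that were most decreased between dcKO and Sox4 cKO, with log2(knockout/wild type) on each of the 4 arrays (circles replicate 1, squares replicate 2, lines joining the genotype means). In every gene shown, both dcKO arrays lay on one side of both Sox4 cKO arrays.

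Cornified envelope genes led the increases by size and made up 18 of the 44 genes called higher. Late cornified envelope proteins of the Lce1 family are crosslinked into the envelope of terminally differentiated keratinocytes. All 14 Lce1 genes were on the array and all were higher in dcKO for both replicate numbers, with differences of 2.24 to 4.66 and a median of 3.09. The median over all named genes was −0.01. Of the 14, 13 were called, and Lce1e (2.46 ± 0.36 SE, adjusted p = 0.0554) was not. Probes for such similar genes may share signal, so the 14 values are not 14 separate measurements.

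Shown here are the 60 bases before the annotated start of the 5 Lce1 genes with the largest differences, of 2310050C09Rik and of Lelp1, another called EDC gene, from RefSeq on build GRCm38.p6, 5′ to 3′ on the strand of the gene. The run ATAAAA is in capitals where it occurs. It was picked because these Lce1 sequences hold it. Lelp1 does not hold it.
Lce1b, chr3:92656927-92656986, minus strand: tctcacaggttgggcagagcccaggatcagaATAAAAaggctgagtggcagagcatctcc
Lce1c, chr3:92679187-92679246, plus strand: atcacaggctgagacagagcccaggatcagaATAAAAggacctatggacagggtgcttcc
Lce1h, chr3:92765066-92765125, minus strand: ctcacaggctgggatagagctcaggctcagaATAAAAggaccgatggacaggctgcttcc
Lce1k, chr3:92807892-92807951, minus strand: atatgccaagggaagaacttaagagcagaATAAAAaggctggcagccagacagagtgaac
Lce1m, chr3:93019062-93019121, minus strand: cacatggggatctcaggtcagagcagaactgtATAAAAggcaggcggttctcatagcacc
2310050C09Rik, chr3:92870206-92870265, minus strand: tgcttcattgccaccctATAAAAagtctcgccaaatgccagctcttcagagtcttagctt
Lelp1, chr3:92142755-92142814, minus strand: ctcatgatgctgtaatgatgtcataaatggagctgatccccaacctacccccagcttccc
ATAAAA on the gene's strand, within these 60 bases, was found in 12 of the 13 Lce1 genes with a listed start (92.3%), a share that the choice of the run and the likeness of these genes fix. It was found in 14 of 38 called higher genes (36.8%), in 3 of the 26 of these outside the Lce1 list (11.5%), 2310050C09Rik among them, and in 3.38% of 16918 genes on the array. The motifs AACAAAG and AACAATG, which SOX proteins can bind, and TGANTCA, which AP-1 binds, were searched on both strands of the 250 bases before the start, and none of these letters occurred in the 13 Lce1 windows. Among all 16918 genes the shares were 5.14%, 3.2% and 7.31%. In the 38 called higher genes they were 5.26%, 2.63% and 10.5%. At such shares, 13 windows of similar genes would often hold none, so their absence does not speak to binding. By ChIP-seq in keratinocytes the paper found both SOX11 and SOX4 bound at several places in the EDC.

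Lce1b had the smallest adjusted p of all probes. Its ratio was 4.22 and 5.03 on the dcKO arrays and −0.52 and 0.45 on the Sox4 cKO arrays, a difference of 4.66 ± 0.18 (SE, n = 2 arrays a genotype, adjusted p = 9.39e-05) or 25.3-fold. Each SE given here comes from a fit with a dye term, which also takes up shifts shared by arrays of the same replicate number. It is therefore not the spread between the 2 arrays of a genotype. The dcKO arrays were both far above the Sox4 cKO arrays, which lay on either side of 0. The same held for Lce1m (3.08 and 5.27 against −1.04 and 0.49, difference 4.45 ± 0.45, adjusted p = 0.00724). Lce1k read 4.12 and 4.14 against −1.04 and 0.57 (4.36 ± 0.34, adjusted p = 0.00166), with the wild type beside Sox4 cKO well above background on 1 of 2 arrays. Lce1h (3.90), Lce1c (3.70), Lce1l (3.42), Lce1g (3.11) and Lce1i (3.07) followed, with adjusted p from 0.000342 to 0.00504. Lce1a2 had 2 probes, both called (2.80 and 3.56).

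Other EDC genes rose in part. 2310050C09Rik, an EDC gene without a formal name, had the greatest difference of all probes (4.28 and 4.35 in dcKO against −1.18 and 0.07 in Sox4 cKO, difference 4.87 ± 0.28, adjusted p = 0.000371). Flg, the gene of filaggrin, which bundles keratin filaments, read 0.86 and 1.27 in Sox4 cKO, without passing there (adjusted p = 0.136), and 4.50 and 4.83 in dcKO (difference 3.60 ± 0.18, adjusted p = 0.000319). Its probe A_52_P127877 was named after the study's own list. Kprp, a proline-rich keratinocyte protein, differed by 3.25 (adjusted p = 0.00142) and Lelp1, a relative of the Lce genes, by 2.46 (adjusted p = 0.00163). A second Lelp1 probe, not well above background in any channel of the 4 arrays, differed by −0.13 (adjusted p = 0.968). Lce6a was higher by 1.85 (adjusted p = 0.0058), the one called gene among 7 of the Lce3 and Lce6 group.

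The EDC list as a whole held 50 genes with a probe. For both replicate numbers 36 were higher and 8 lower, 18 were called higher (over all genes 0.206% were) and 0 lower. Its median was 0.96, with 1.1 for replicate number 1 and 1.29 for replicate number 2. The list median without Sox4 cKO replicate 1 was 1.29, and over probes well above background 1.32. The increase was not even across the complex. Of 13 Sprr genes none was called, though 1 passed the adjusted p and was higher in dcKO, short of the fold threshold. For both numbers 5 were higher and 5 lower. Their median was 0.46 and their largest difference 1.42. Sprr2a2, the brightest, differed by −0.15 (adjusted p = 0.961) but by 1.23 at another probe, Sprr1b by 0.89 (adjusted p = 0.642) and Sprr1a by −0.48 (adjusted p = 0.808). Loricrin, the most abundant envelope protein (Lor, 0.35 ± 0.33, adjusted p = 0.931), involucrin, its early scaffold (Ivl, 1.12, adjusted p = 0.757), Crct1 (1.32, adjusted p = 0.457) and hornerin (Hrnr, 0.71, adjusted p = 0.842) had positive differences that did not pass. Flg2, a relative of filaggrin, was higher on both dcKO arrays (3.71 and 2.08 against −0.44 and 0.64) without passing (2.79 ± 0.52, adjusted p = 0.168). Lce3f took opposite signs for the replicate numbers, as Lce3f read −2.03 and 0.46 in dcKO and −0.35 and −0.09 in Sox4 cKO (difference −0.57, adjusted p = 0.905).

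**Figure D2:**
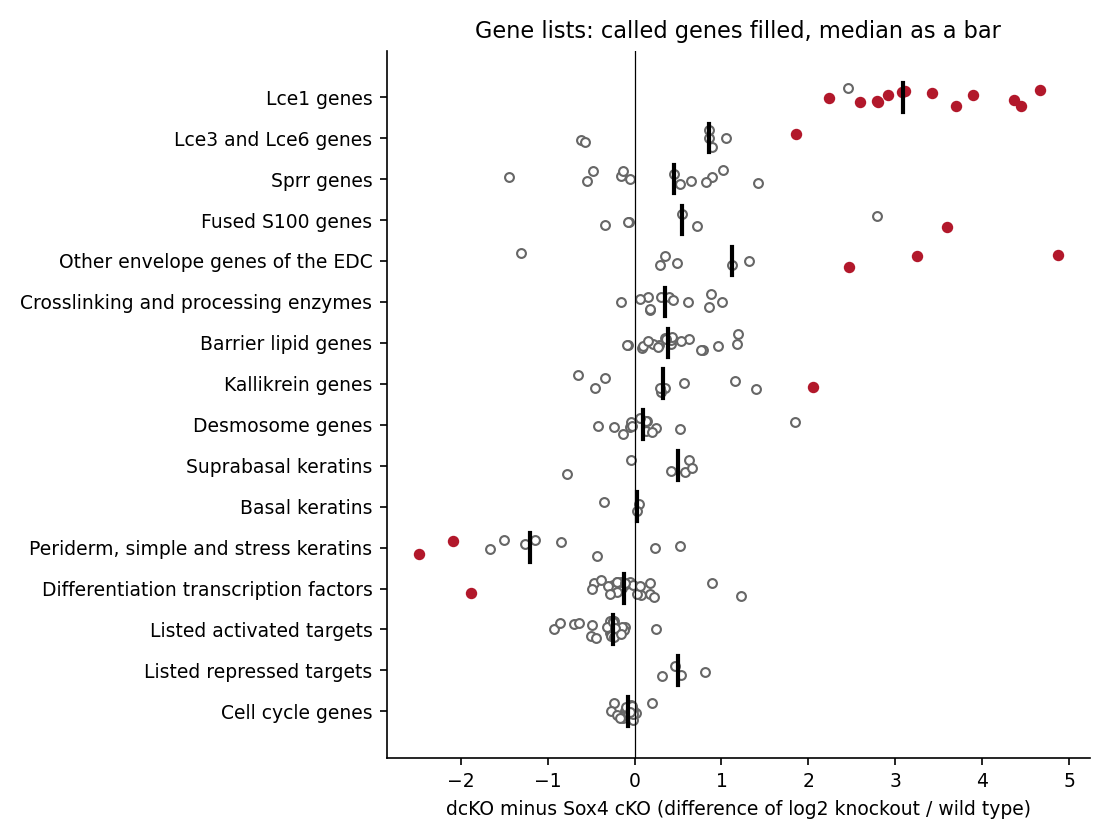
Difference between dcKO and Sox4 cKO (log2) for the genes of 16 lists, 1 point per gene, filled where called, with the list median as a bar. The 14 Lce1 genes lie between 2.24 and 4.66, while most genes of the other lists lie within 1.5 of 0.

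The machinery that finishes the envelope had smaller positive differences. Of 12 enzymes that crosslink envelope proteins or process filaggrin none was called, with a median of 0.35 (7 higher and 1 lower for both numbers), and Blmh, a protease that degrades filaggrin to amino acids, had the largest difference of the list (1.01, adjusted p = 0.351). Of 20 genes of barrier lipid synthesis and transport 16 were higher and 1 lower for both numbers, with a median of 0.39 and none called. Elovl1, an elongase of long fatty acids, differed by 0.42 (adjusted p = 0.86). Among 10 kallikreins, proteases of shedding, Klk7 was called (2.34 and 2.58 in dcKO against 0.35 and 0.47 in Sox4 cKO, difference 2.05 ± 0.19, adjusted p = 0.0037), and the median was 0.33. In this list 2 genes passed the adjusted p, both higher in dcKO, and Klk7 alone of them passed the fold threshold. Klk5, which activates Klk7, differed by 1.16 (adjusted p = 0.64). The desmosome list (14 genes) had a median of 0.10 and the tight junction list (10 genes) one of −0.08, with none called in either. The desmosome differences ranged from −0.42 to 1.85, and none passed the adjusted p.

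Genes outside the EDC were also among the largest increases. Sdcbp2, which encodes the scaffold protein syntenin-2, read 3.65 and 4.13 in dcKO and −0.41 and 0.46 in Sox4 cKO (3.86 ± 0.19, adjusted p = 0.000319). Tmem229b, a membrane protein gene, read 3.66 and 3.84 against 0.02 and 0.34 (3.57 ± 0.20, adjusted p = 0.000342). Krt72, a keratin of the inner root sheath of the hair, was higher by 2.96 (2.57 and 2.55 in dcKO against −0.33 and −0.48 in Sox4 cKO, adjusted p = 0.00096). 3300005D01Rik rose by 3.05 (adjusted p = 0.0224), but its level was well above background on both arrays in the dcKO channel and on 1 of 2 in the other channels.

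The keratins were read in 3 lists. Basal keratins, the filaments of dividing keratinocytes, had no difference that passed (Krt5 0.05 ± 0.19, Krt14 0.03 ± 0.19, Krt15 −0.35 ± 0.18, adjusted p from 0.852 to 0.996). Suprabasal keratins of the spinous layer did not pass either (median 0.50 over 6 genes, Krt10 0.63 ± 0.36 with adjusted p = 0.865, Krt1 0.42 ± 0.38 with adjusted p = 0.925). The periderm, simple and stress keratins lay lower in dcKO. Of these 10 genes 8 were lower and 1 higher for both replicate numbers, 2 were called lower (over all genes 0.0421% were) and 0 higher, and the median was −1.20. Without Sox4 cKO replicate 1 it was −0.63 and without Sox4 cKO replicate 2 −1.77.

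Krt4, a keratin of the periderm and of moist epithelia, read 1.19 and 0.78 in Sox4 cKO, where it did not pass (adjusted p = 0.227), and −1.27 and −1.72 in dcKO, a difference of −2.48 ± 0.19 (adjusted p = 0.00164). The signs were opposite in the 2 genotypes on both arrays. They were so too for Krt19, found in simple epithelia and periderm (0.88 and 0.50 against −1.54 and −1.26, difference −2.09 ± 0.29, adjusted p = 0.0431). Upk1b, a uroplakin of the apical membrane of bladder surface cells, had opposite signs as well (0.72 and 0.66 against −1.60 and −1.43, −2.21 ± 0.31, adjusted p = 0.0443). Krt6a, a stress keratin, read likewise without passing (0.83 and 0.25 against −1.12 and −0.81, −1.51 ± 0.36, adjusted p = 0.428). Krt17 read below 0 in both genotypes (−0.91 and −0.97 in Sox4 cKO, −1.08 and −1.66 in dcKO), with a difference of −0.43 (adjusted p = 0.841). Krt13 lay near 0 in both (difference 0.24, adjusted p = 0.932).

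In the Sox11 cKO, which lacks Sox11 alone, Krt4 read −1.44 and −1.51, Krt19 −1.57 and −0.63, and Upk1b −1.71 and −0.41. These ratios were below 0 on both arrays without passing against wild type (adjusted p = 0.0951, 0.557 and 0.598). The effect of losing Sox11 without Sox4 departed from its effect with Sox4 by −1.01 for Krt4, −0.99 for Krt19 and −1.15 for Upk1b, and none of these departures passed (adjusted p = 0.544, 0.76 and 0.759). The standard errors of the departures were 0.23, 0.35 and 0.37, and a departure that missed the threshold does not show that the effects were alike.

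**Figure D3:**
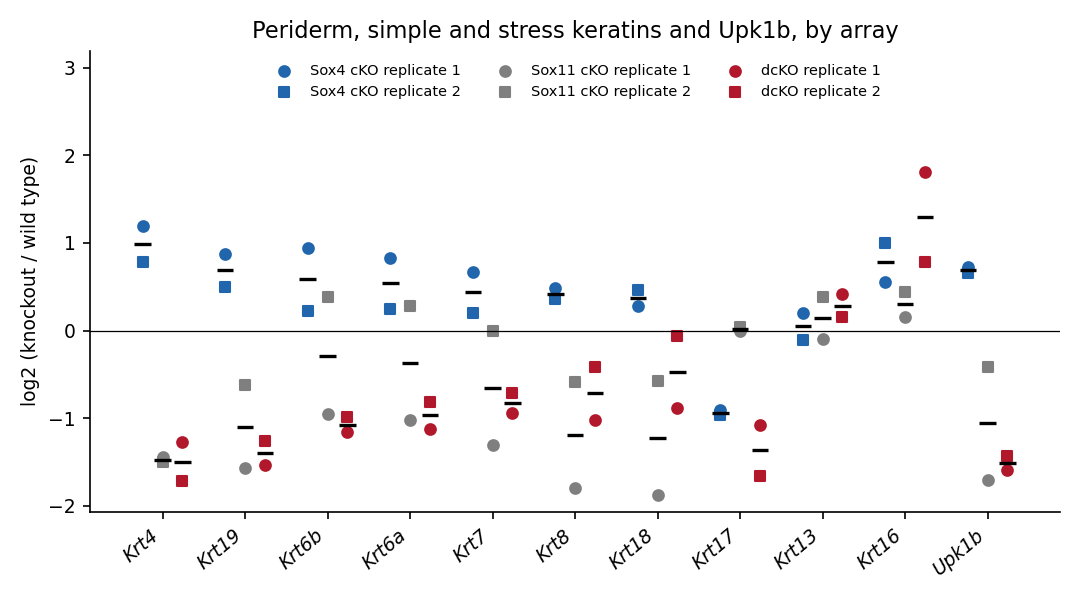
Log2(knockout/wild type) on each of the 6 arrays for the 10 periderm, simple and stress keratins and Upk1b (circles replicate 1, squares replicate 2, bars the genotype mean). For Krt4, Krt19 and Upk1b both Sox4 cKO arrays are above 0 and both dcKO and both Sox11 cKO arrays below 0.

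The other genes called lower in dcKO had mixed roles. Vsig8, an immunoglobulin-domain membrane protein, had the largest decrease (0.68 and 0.25 in Sox4 cKO, −3.24 and −2.94 in dcKO, difference −3.56 ± 0.46, adjusted p = 0.0339). Tmem119 encodes a membrane protein best known from osteoblasts and microglia and read −0.24 and 0.11 in Sox4 cKO and −2.56 and −2.45 in dcKO (−2.44 ± 0.20, adjusted p = 0.00179). Elf5, an ETS transcription factor of epithelia, differed by −1.88 ± 0.22 (adjusted p = 0.0168) and was the one called gene among 24 differentiation transcription factors, whose median was −0.13. Slc2a3, a glucose transporter (−1.85, adjusted p = 0.0419), and Vnn1, a pantetheinase (−1.71, adjusted p = 0.0225), were also called lower. For each of these both dcKO arrays lay below both Sox4 cKO arrays.

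A short list of genes that the study tabulated as activated or repressed targets of SOX11 and SOX4, which holds only part of the genes it found bound, had no member called between the genotypes. The list was chosen partly on these arrays, so it is not independent evidence. Of the 25 listed activated genes 17 were lower and 1 higher for both replicate numbers, and the median was −0.25. Their median ratio was −0.60 in Sox4 cKO and −0.87 in dcKO. Tmsb10, which binds actin monomers, read below 0 in both (−1.12 and −1.15 in Sox4 cKO, −1.19 and −1.39 in dcKO, difference −0.16 ± 0.19, adjusted p = 0.951). Evl, which promotes actin filament growth, differed by −0.24 ± 0.18 (adjusted p = 0.909). The 4 listed repressed genes had a median of 0.50, all were higher for both numbers and none was called. Cell cycle genes (17) had a median of −0.08, actin and adhesion genes (24) −0.08 and hair follicle bud genes (15) −0.08, with none called.

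Because a difference of 2 ratios also holds the difference between 2 sets of wild-type littermates, the levels in each channel were set side by side. Levels are log2 intensities normalized between arrays. The median level of the 14 Lce1 genes in the wild type was 13.3 and 8.92 beside Sox4 cKO and 11.1 and 10.4 beside dcKO, so the wild types themselves spanned more than 4 on the log2 scale. In the knockouts it was 12.7 and 9.34 in Sox4 cKO and 13.8 and 13.3 in dcKO. Both dcKO wild types lay between the Sox4 cKO wild types for 9 of the 14 Lce1 genes, against 17.9% of all probes. In Sox4 cKO, knockout and wild type were close on both arrays, at a high level on replicate 1 and a low one on replicate 2. In dcKO the knockout stood above its wild type on both.

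**Figure D4:**
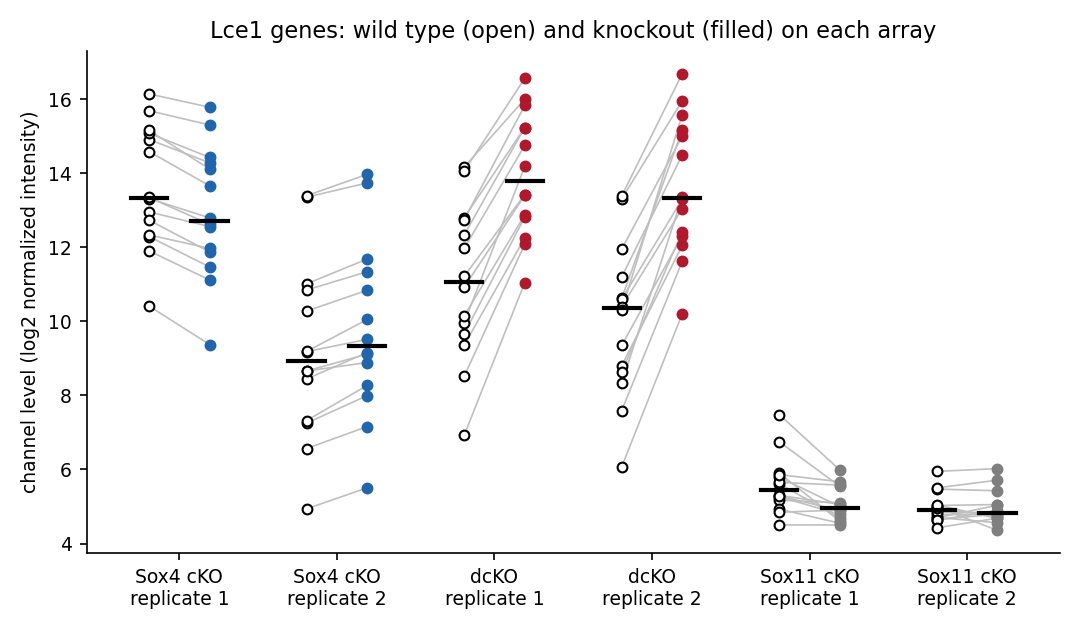
Channel levels (log2 normalized intensity) of the 14 Lce1 genes on each of the 6 arrays, wild type open and knockout filled, lines joining the channels of one gene and bars the medians. Knockout medians stand above the wild-type medians by about 3 on the dcKO arrays, while wild-type medians differ between arrays from 13.3 to 4.9.

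The difference was thus made up differently for the 2 replicate numbers. For replicate number 1, the Lce1 median was 0.92 higher in the dcKO channel than in the Sox4 cKO channel, and 2.49 lower in the wild type beside dcKO, with 0 of 14 genes higher there. For replicate number 2 the knockout channel was 4.15 higher and the wild-type channel 1.08 higher. Over all 62 probes called higher, the knockout channel was higher in dcKO for both numbers in all (medians 0.98 and 2.23), and the wild type was lower beside dcKO in 61 for replicate number 1 (median −1.52) and in 40 for replicate number 2 (−0.11). The wild type on Sox4 cKO replicate 1 had the highest level of the 4 wild types for 61 of the 62. What set the wild-type levels was not tested.

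With knockout channels compared directly, without the wild types, 49 probes were called (0.088%), 28 higher and 21 lower in dcKO, and 5 of these were among the 73. They were Krt4, Vsig8, Hmox1, Plscr1 and a probe without a name, singled out after their values were seen. None of the Lce1 genes was among the 49 (Lce1b 12.8 and 9.11 in the Sox4 cKO channel, 14.2 and 13.4 in the dcKO channel, difference 2.82, adjusted p = 0.332). The periderm list behaved otherwise. Its median was lower in the knockout channel for both numbers (−1.52 and −0.94) and near 0 in the wild type (0.25 and −0.04). In the knockout channels Krt4 fell by 2.20 (adjusted p = 0.00987) and Krt6a by 1.43 (adjusted p = 0.0223, short of the fold threshold). Krt19 differed there by −1.57 without passing (adjusted p = 0.0831). The summed level of the list, knockout over wild type on the log2 scale, was 0.14 and −0.03 in Sox4 cKO and −0.15 and −0.70 in dcKO. A comparison of channels between arrays keeps spot and array effects that a ratio within an array removes.

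**Figure D5:**
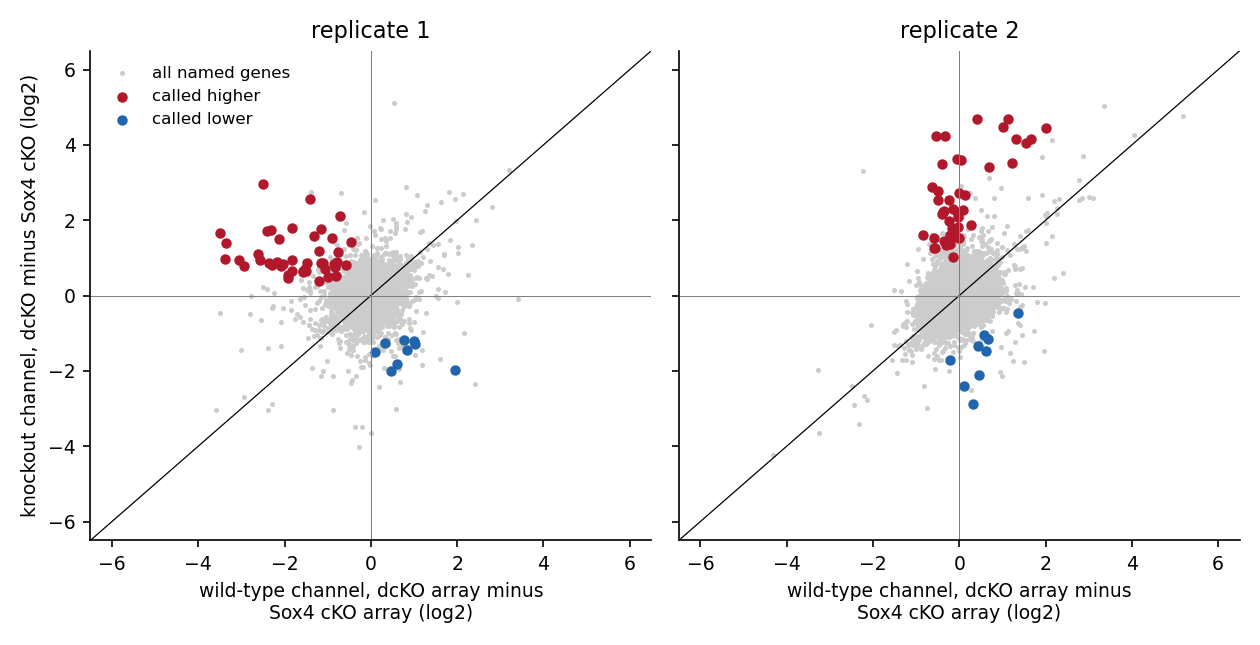
Knockout channel difference against wild-type channel difference (dcKO array minus Sox4 cKO array, log2) for all named genes, for replicate 1 and replicate 2, with called genes in colour. On replicate 1 the called higher genes lie left of 0 in the wild type, and on replicate 2 they lie on both sides of 0.

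In the wild-type channels alone 9 probes were called (0.0162%), none of them among the 73, and 2837 reached an unadjusted p under 0.05. Of the 9, 8 were called in the knockout channels too, all in the same direction. Tle1, for example, was higher by 2.95 in the wild type and 2.47 in the knockout beside dcKO, and Nr1h5 was lower by 3.41 and 3.35, both chosen after their values were seen, which left −0.48 and 0.06 in the difference of ratios.

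Marker lists and sex differed between the arrays. The labelled tissue was borne out by Krt5 and Krt14, well above background in all 8 channels. The summed level of 10 skeletal muscle markers, knockout over wild type on the log2 scale, was −2.14 on Sox4 cKO replicate 1 and 0.18 on replicate 2, and −0.10 and −0.87 in dcKO. On Sox4 cKO replicate 1, 9 of the 10 were well above background in the wild type and 3 in the knockout. The same sum for 9 dermal fibroblast markers was −1.0 and 0.53 in Sox4 cKO and −0.35 and −0.09 in dcKO. None of the 57 muscle, dermal, endothelial, red blood cell, immune, melanocyte and Merkel cell markers was called, and their part in the results was not tested. In bulk epidermis, fewer cells of a type and less RNA per cell cannot be told apart. Xist stood at 9.03 and 8.98 in both channels of Sox4 cKO replicate 2 and at 4.44 to 4.79 in the other 6 channels, while Eif2s3y, on the Y chromosome, stood at 4.82 and 4.40 there and at 9.41 to 9.74 elsewhere. Each array thus held 1 sex, and sex differed between the genotypes for replicate number 2 only.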

How the data were processed

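Two-colour Agilent arrays of E16 epidermis (6 arrays, 2 a genotype, Sox4 cKO, dcKO and Sox11 cKO, all on 1 slide and in 1 scan) were analysed, with groups, dyes and replicate numbers from the labels. The authors extracted spot intensities with Agilent Feature Extraction 11.0.1.1, and the deposited intensity values are median signals with local background, not normalized. Beside them stands the deposited log10 ratio (Cy5 over Cy3) of the scanner software. The authors' series table holds log2 ratios, which per the methods were corrected with normexp (offset 16), loess and ComBat in limma (version 3.5 by the submitters' processing notes). Recomputed ratios without ComBat equalled the table (slope 1, correlation 1), as knockout over wild type, so the table holds no ComBat adjustment for colour beyond the loess step. Between 37.7% and 42.3% of probes were well above background in a channel, and 0 spots were saturated, so the dim probes and the number of arrays limit the precision. Between 390 and 485 outlier spots an array were left out of channel levels and recomputed ratios but stay in the table.

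A model was fitted to all 6 arrays in R 4.3.3 with limma 3.58.1, with 1 coefficient a genotype and 1 for dye, moderated by empirical Bayes (6.65 prior and 2 residual degrees of freedom). The contrast was dcKO minus Sox4 cKO. Adjusted p-values are Benjamini-Hochberg over all probes, and every p is two-sided and from limma. The departure is dcKO minus Sox4 cKO minus Sox11 cKO in the same fit. The dye coefficient is also the replicate block. Deviations of same-numbered arrays correlated at r = 0.31 (dcKO and Sox4 cKO), 0.33 (dcKO and Sox11 cKO) and 0.26 (Sox4 cKO and Sox11 cKO), the pairing coming from the dye orientation in the labels. Channel levels came from normexp (offset 16), loess and Aquantile. The labels call the arrays biological replicates. The labels do not say whether wild-type RNA was shared.

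Probes were named by RefSeq accession (28331), symbol (10) or the study's table (1), with symbols of GRCm38.p6, while 27339 stayed unnamed. The array design used another assembly, so no probe coordinates are given. A gene was represented by its probe of highest mean level. Sprr2a1, Sprr2a3 and Hbb-bs had no named probe. Genes to name were drawn from the 15 largest increases and 10 largest decreases (9 existed), Sox4, Sox11 and Sox12, called list members up to 6 and up to 3 bright uncalled ones a list. Part of these are named, and 1 called gene is not reported here. Members and lists were chosen with earlier results of these data known. The code of the fit was checked on simulated ratios with independent noise, which does not cover differences between the wild types.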

Additional observations from a re-analysis of the deposited data

Results flagged for a closer look

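Whether the effect of losing Sox11 differed with and without Sox4 was tested as dcKO minus Sox4 cKO minus Sox11 cKO in the same limma fit. By adjusted p under 0.05 and an absolute departure over 1.5, 49 probes differed, 40 of them higher, and 45 of the 49 were also called between dcKO and Sox4 cKO. Without the replicate block 24 differed. For 15 of the 49 neither channel was well above background on either Sox11 cKO array, so their effect in Sox11 cKO was not measured. By the brightest probe the same held for 6 of the 14 Lce1 genes, whether or not they were among the 49. In both channels of both Sox11 cKO arrays 17 of the 49 were measured. Among these 17 were Tmem229b (departure 4.03, adjusted p = 0.00126), Lce1a2 (3.51, adjusted p = 0.00299), Lce1j (2.84, adjusted p = 0.0031), Tmem119 (−2.99, adjusted p = 0.0031) and Vsig8 (−4.28, adjusted p = 0.0487). So were the brightest Sftpd probe (−4.93, adjusted p = 0.0205) and the called Ncoa3 probe (2.53, adjusted p = 0.00724). The Lce1 median level on the Sox11 cKO arrays was 5.46 and 4.90 in the wild type and 4.95 and 4.82 in the knockout, below every such median on the other 4 arrays.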

How the results depend on the processing

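The count of 73 probes fell to 48 with no replicate block (all among the 73) and to 0 with the Feature Extraction log ratio, where the lowest adjusted p was 0.473. Leaving out 1 array, with a lone array assumed to vary like the others, gave 47 to 135 calls, of which 37 to 67 were among the 73, and 70.9% to 86.6% of calls were higher. Between 57 and 99 were called under offset 50, scaling, ComBat, the 4 arrays alone, the background filter, the trend or adjusted p alone. The departure from Sox11 cKO fell from 49 to 24 with no replicate block. The EDC median was 1.32 over probes above background and 1.02 to 1.29 without 1 array. The median of the listed activated targets was −0.22 at offset 50, −0.32 with the Feature Extraction ratio, −0.19 when scaled, −0.27 as the mean over probes and −0.29 to −0.24 without 1 array. Calls in the knockout channels rose from 49 to 81 with only the 4 arrays, and to between 76 and 143 without 1 array. Calls in the wild-type channels rose from 9 to 14 with no replicate block, 18 without scaling between arrays, 25 with only the 4 arrays and between 18 and 85 without 1 array.

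Leaving out 1 array turned the sign of 8 values. The Lce1 median in the wild-type channel ranged from −2.68 to 1.21 (1.21 without Sox4 cKO replicate 1), Lce3f from −1.47 to 0.33, Sprr2a2 from −0.35 to 0.040, Lor from −0.039 to 0.74, Krt1 from −0.21 to 1.04, Krt5 from −0.064 to 0.16, Krt14 from −0.14 to 0.20 and Sox12 from −0.55 to 0.39. The causes were not tested. Of 32 called genes 21 stayed called with no replicate block, 0 with the Feature Extraction ratio and 22 without Sox4 cKO replicate 1, and 0 changed sign under any alternative. The alternatives for the Lce1 and periderm medians, the channel medians and the departure were chosen after seeing the data. Dim probes and 2 arrays a genotype limit what could be detected.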

Other observations

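Some genes were called between the knockout channels of dcKO and Sox4 cKO but not in the difference of ratios, and were picked after their values were seen. Skint3, of a family that selects skin T cells, was higher by 5.07 in dcKO in the direct comparison (adjusted p = 1.32e-05) and by 1.94 between the wild types, and its ratio was 4.48 and 1.54 in dcKO and −0.11 and −0.12 in Sox4 cKO (difference 3.12, adjusted p = 0.556). Of the closely related Serpina3 genes, whose probes may share signal, Serpina3h was higher by 2.70 in the knockout channel and 1.86 in the wild type. Serpina3f fell by 2.91 in the knockout channel and 2.26 in the wild type. Camta1, one of the listed repressed genes, was higher by 1.95 in the knockout channel and by 1.14 in the wild-type channel, leaving a difference of 0.80 (adjusted p = 0.457). Sprr3 and Prr9, both on the EDC list, fell in the knockout channel by 1.76 (adjusted p = 0.013) and 1.66 (adjusted p = 0.0469). Their ratio differences of −1.45 and −1.31 did not pass. A dimmer probe of Sprr2a2, also on that list, was higher in the knockout channel by 1.64 (adjusted p = 0.0326).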
